A study of Mus musculus with 2 samples.

Results

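The genes described here are 9 genes of vascular signalling: the VEGF ligands Vegfa, Vegfb and Vegfc, the angiopoietin Angpt1 and its receptor Tek, the angiopoietin-like genes Angptl1 and Angptl2, the hypoxia-inducible factor subunit Hif1a, and Thbd, which encodes thrombomodulin. They were chosen by symbol, 9 of the 31054 genes measured, and each symbol occurred once in the gene table of either library. Their RNA was read in gonadal white adipose tissue (gWAT) of male mice aged 18 months with the genotype p16-CreERT2/R26-LSL-tdTomato. In these mice the p16 gene drives a Cre recombinase that works only after tamoxifen, and recombination leaves a lasting tdTomato signal in cells that used the p16 promoter at that time. All mice of both groups carried both alleles and received tamoxifen, the tissue was digested with Liberase, and cells without surface CD31 and CD45 were sorted into tdTomato-positive (Tom+) and tdTomato-negative (Tom-) cells. The labels separate the groups by the reporter gate alone, but each group is also its own library, and how many mice were pooled for a library is not given in the sources used here.

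VEGF ligands bind receptor tyrosine kinases of endothelial cells. Vegfa acts mainly through Kdr and drives sprouting of blood vessels, Vegfc acts through Flt4 and is best known for lymphatic vessels, and Vegfb binds Flt1. Angpt1 is made by perivascular and stromal cells and activates Tek (also called Tie2), a receptor best known from endothelium, where it stabilises vessels. Hif1a is the oxygen-regulated subunit of the factor that induces Vegfa when oxygen is low, a control that acts largely on the protein. Thrombomodulin binds thrombin and turns it toward protein C activation, so that clotting is restrained. Adipose stromal progenitors lie along vessels and are a known source of VEGF in fat.

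Each condition was measured in 1 droplet library, so that cells of a library are not replicates, and the reporter gate cannot be told apart from the preparation of the library. No test and no p-value can therefore be given. Values are unique molecular identifiers (UMIs, 1 for each captured RNA molecule) summed over cells and scaled to counts per 1000000 of all UMIs in those cells (CPM). Values in parentheses are exact 95% intervals, which cover counting error only. Because the 3' kit tags 1 end of each molecule, CPM was not divided by gene length. After barcodes were limited to more than 1000 and under 7000 genes and to mitochondrial UMIs under 8%, 3524 Tom+ and 6717 Tom- cells were kept. Cells with at least 10 UMIs of the mesothelial genes Msln, Upk3b, Krt19, Lrrn4 and Upk1b were called mesothelial (250 Tom+ and 1887 Tom-), and cells with under 5 such UMIs stromal (3263 Tom+ and 4800 Tom-). The stromal cells held 51104409 UMIs in the Tom+ and 57883866 in the Tom- library, and the mesothelial cells 5322983 and 32355904. A member missing at this depth is limited to 3 UMIs, which is 0.0587 CPM in Tom+ stromal cells and 0.564 CPM in Tom+ mesothelial cells.

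The stromal and mesothelial classes were checked with markers that the rule did not use. Reporter RNA was read as well, which follows the sort gate and does not check the classes. Thinned to 7204 UMIs per cell, a UMI of the progenitor marker Pdgfra was found in 84.2% of Tom+ and 80.2% of Tom- stromal cells, and in 22.3% and 23.8% of mesothelial cells. The 7 mesothelial markers that the rule did not use summed to 2691 CPM in Tom+ and 2842 CPM in Tom- mesothelial cells, against 176 and 280.1 CPM in stromal cells. Reporter RNA stood at 211 (Tom+) and 13.1 CPM (Tom-) in stromal cells, and at 780.2 and 8.25 CPM in mesothelial cells. Immune and immunoglobulin RNA moved with the Tom+ library. In stromal cells 5 of 5 immune markers that reached 5 CPM were more than 1.5-fold higher, their list of 7 genes summing to 202 against 52.1 CPM, and 5 immunoglobulin genes summed to 60028 against 14553 CPM. Of the barcodes, 2224 were listed in both libraries and 9 were kept in both. Among the kept cells, 506 Tom+ cells (median 27828 UMIs, against 13571 for the rest) and 284 Tom- cells (median 32752 against 11771) had a barcode that was also listed in the other library. Some of the values that moved beyond their counting interval without these cells are given beside the result, and not all.

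The VEGF ligands lie apart in the genome (GRCm38): Vegfa (ENSMUSG00000023951) on the minus strand of chromosome 17 between bases 46016993 and 46032369, Vegfb (ENSMUSG00000024962) on the minus strand of chromosome 19 between 6982473 and 6987651, and Vegfc (ENSMUSG00000031520) on the plus strand of chromosome 8 between 54077606 and 54187096. Angpt1 (ENSMUSG00000022309) is a minus-strand gene of chromosome 15, spanning 42424723 to 42676977, and Tek (ENSMUSG00000006386) a plus-strand gene of chromosome 4, spanning 94739289 to 94874976. Angptl1 (ENSMUSG00000033544) spans 156838562 to 156861078 on the plus strand of chromosome 1. Chromosome 2 holds both Angptl2 (ENSMUSG00000004105, plus strand, 33216069 to 33247717) and Thbd (ENSMUSG00000074743, minus strand, 148404466 to 148408188). Hif1a (ENSMUSG00000021109) covers 73901375 to 73947530 on the plus strand of chromosome 12.

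For the members whose levels set stromal cells apart below, the RefSeq promoter sequence (GRCm38.p6) is shown, as the 250 bases before the annotated start on the strand of the gene. Tek (chr4:94739039-94739288, plus strand) and Vegfc (chr8:54077282-54077531, plus strand) are the pair with the most opposite pattern over the 8 large stromal clusters. Angptl2 (chr2:33215711-33215960, plus strand) and Hif1a (chr12:73907617-73907866, plus strand) are the pair with the highest ratios of Tom+ over Tom- in stromal cells as a whole. Capitals mark the core of hypoxia response elements, ACGTG or GCGTG, on either strand, and the AP-1 site TGANTCA was searched on both strands as well.
Tek: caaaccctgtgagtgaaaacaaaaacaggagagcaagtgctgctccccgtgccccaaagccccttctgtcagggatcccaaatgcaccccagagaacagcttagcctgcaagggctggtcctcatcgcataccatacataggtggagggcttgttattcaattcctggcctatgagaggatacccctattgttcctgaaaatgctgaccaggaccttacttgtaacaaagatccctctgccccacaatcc
Vegfc: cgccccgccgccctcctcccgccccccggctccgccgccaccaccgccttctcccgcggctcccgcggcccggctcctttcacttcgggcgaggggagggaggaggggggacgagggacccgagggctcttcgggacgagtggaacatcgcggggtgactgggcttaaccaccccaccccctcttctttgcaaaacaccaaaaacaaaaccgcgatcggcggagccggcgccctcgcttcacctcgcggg
Angptl2: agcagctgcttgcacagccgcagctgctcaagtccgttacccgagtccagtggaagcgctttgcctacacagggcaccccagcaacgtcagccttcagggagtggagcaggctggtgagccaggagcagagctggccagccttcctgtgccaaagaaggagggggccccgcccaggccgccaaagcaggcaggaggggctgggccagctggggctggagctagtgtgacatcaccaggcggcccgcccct
Hif1a: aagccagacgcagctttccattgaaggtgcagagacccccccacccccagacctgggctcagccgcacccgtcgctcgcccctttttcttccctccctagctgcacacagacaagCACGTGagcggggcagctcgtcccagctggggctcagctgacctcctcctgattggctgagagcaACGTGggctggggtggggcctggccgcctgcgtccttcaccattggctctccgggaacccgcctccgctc
Only the Hif1a window of these 4 held the hypoxia core, with 3 matches, a pair of which overlap in a palindrome that reads the same on both strands. The core is short and was found in 38.6% of the 32817 promoter windows of this length, so that a match is common. The AP-1 site was found in 6.75% of all windows and in none of these 4. None of the 4 windows overlapped an annotated exon, while that of Angptl2 lay in an intron of Ralgps1 and that of Hif1a in an intron of a longer Hif1a transcript and of Gm15283. Ralgps1 and Gm15283 run on the opposite strand, and whether reads were counted by strand is not given in the sources used here, so their reads may not be separable from those of Angptl2 and Hif1a. These letters describe the windows and say nothing about binding.

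Among the ligands in stromal cells, Vegfa and Vegfc stood at like levels. Vegfa stood at 78.1 CPM in Tom+ cells (75.7 to 80.5) and 73.3 CPM in Tom- cells (71.1 to 75.6). Its log2 ratio of Tom+ over Tom- was 0.091 (0.028 to 0.15), at percentile 52.8 of the 9778 genes that averaged 5 CPM or more, whose median was 0.071. Vegfa thus moved with the bulk of genes. Vegfc was at 75.3 CPM in Tom+ stromal cells (72.9 to 77.7) and 81.5 CPM in Tom- cells (79.2 to 83.9), a log2 ratio of -0.12 (-0.18 to -0.054), or -0.034 without the barcodes listed in both libraries. Without the stromal clusters of under 100 cells described below, the Vegfc ratio was -0.014, and the ratios of the other members rose too, as given below. Vegfb had the lowest level of the 3, with 29.5 CPM in Tom+ cells (28.0 to 31.0) and 24.5 CPM in Tom- cells (23.3 to 25.9). Its ratio of 0.26 (0.16 to 0.37) lay at percentile 76.8. None of the 3 ligands passed 1.5-fold between the libraries.

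**Figure D1:**
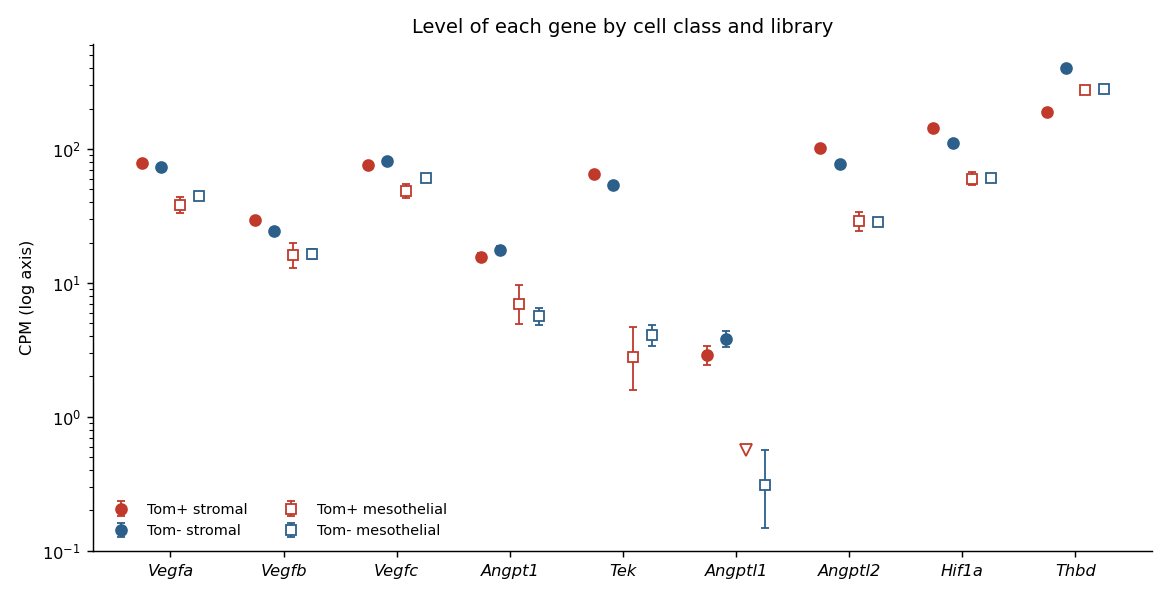
Level of each gene in CPM on a log axis, with circles for stromal and squares for mesothelial cells, red for the Tom+ and blue for the Tom- library. Bars are exact Poisson 95% intervals for counting error, hidden by the point where narrow, and the triangle marks the level of 3 UMIs where Angptl1 had none. All genes except Thbd sit higher in stromal than in mesothelial cells of the same library, and Thbd has its highest level in Tom- stromal cells (403.2 CPM).

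The receptor Tek was far more abundant in stromal cells than its ligand. Angpt1 was at 15.6 CPM in Tom+ stromal cells (14.5 to 16.7) and 17.7 CPM in Tom- cells (16.6 to 18.8), a log2 ratio of -0.18 (-0.32 to -0.048). Tek had 64.8 CPM in Tom+ cells (62.6 to 67.0) and 54.1 CPM in Tom- cells (52.2 to 56.1), a ratio of 0.26 (0.19 to 0.33) at percentile 76.3. Without the barcodes listed in both libraries it was at 73.5 CPM against 55.4 CPM. With each cell thinned to 7204 UMIs, Tek was detected in 33.8% (32.1 to 35.5) of Tom+ and 26.2% (24.9 to 27.5) of Tom- stromal cells. In the 95 immunoglobulin-led cells of cluster 10, Tek was found in 0 of 59 thinned Tom+ cells (0 to 6.06%) and 0 of 26 thinned Tom- cells (0 to 13.2%). Cluster 10 had the lowest Tek level of all clusters, 0.965 CPM with both libraries summed, and is no background for other cell types. Tek was at 8.52 CPM in the immunoglobulin-led cluster 9. It was at 39.4, 19.2 and 11.2 CPM in clusters 11, 12 and 13, led by T cell, macrophage and mast cell genes, from 22, 9 and 2 UMIs. Immunoglobulin RNA counts toward the UMIs of the cells of cluster 10, so thinning does not match the depth of their other RNA, here or below. Without thinning, Tek was detected in 1 of 60 and 1 of 35 of these cells, whose median depths were 37503 and 24675 UMIs, and in 47.7% and 33.4% of stromal cells, whose median depths were 14235 and 11270. Since Tek is an endothelial receptor and the sort removed CD31+ cells, endothelial markers were read beside it. None of the 7 markers (Pecam1, Cdh5, Vwf, Cldn5, Emcn, Tie1, Kdr) reached a mean of 5 CPM in stromal cells, and together they summed to 8.75 CPM in Tom+ and 9.45 CPM in Tom- cells. Only 65 of 1558 Tom+ and 57 of 1601 Tom- stromal cells with a Tek UMI also had a UMI of any of them, or 4.17% and 3.56%. Without all cells that had such a UMI, the Tek level was 67.0 and 55.8 CPM, no lower than with them.

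Of the angiopoietin-like pair, Angptl2 was well measured and Angptl1 had the lowest level of the 9. Angptl2, a secreted glycoprotein, was at 100.9 CPM in Tom+ stromal cells (98.2 to 103.7) and 76.9 CPM in Tom- cells (74.7 to 79.2). Its ratio of 0.39 (0.33 to 0.45) was the highest of the members and lay at percentile 88.2, which is 1.31-fold. Without the barcodes listed in both libraries Angptl2 was at 110.8 against 78.1 CPM, a ratio of 0.50. Angptl1 had 147 UMIs in Tom+ cells, which is 2.88 CPM (2.43 to 3.38), and 220 in Tom- cells, which is 3.80 CPM (3.32 to 4.34), below the 5 CPM set for a comparison. Few cells carried it: the 1% of stromal cells with the most Angptl1 held 44.2% of its UMIs in the Tom+ and 53.6% in the Tom- library. Hif1a had 144.3 CPM in Tom+ cells (141.1 to 147.7) and 110.8 CPM in Tom- cells (108.1 to 113.5), a ratio of 0.38 (0.33 to 0.43) at percentile 87.6, or 0.44 without the barcodes listed in both libraries. Hif1a was detected in 60.2% of thinned Tom+ stromal cells (58.4 to 61.9) and 48.9% of Tom- cells (47.4 to 50.4). In cluster 10 the thinned shares were 6.78% (1.88 to 16.5) and 26.9% (11.6 to 47.8). Without thinning they were 20% and 42.9% in cluster 10 and 78.9% and 62.6% in stromal cells. With both libraries summed, Hif1a was at 21.5 CPM in cluster 10 and 61.3 CPM in cluster 9. In clusters 11, 12 and 13 it was at 189.8, 87.3 and 134.1 CPM. The RNA of Hif1a does not measure the activity of the factor.

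Thbd was the most abundant of the 9 and had the largest difference. It was at 189.9 CPM in Tom+ stromal cells (186.1 to 193.7) and 403.2 CPM in Tom- cells (398.0 to 408.4), from 9703 and 23337 UMIs, and so 2.12-fold lower in the Tom+ library. The log2 ratio of -1.09 (-1.12 to -1.05) lay at percentile 0.721 of all genes. Thbd was the 1 member of 8 at or past 1.5-fold in stromal cells, where 7.11% of all 9778 genes passed in either direction, with 3.86% of genes higher and 3.25% lower. Without the barcodes listed in both libraries Thbd was at 222.1 CPM against 412.4 CPM, and without cells that had at least 5 immune UMIs at 205.5 CPM against 415.5 CPM. The shares were closer than the levels: Thbd was detected in 45.6% of thinned Tom+ stromal cells (43.8 to 47.3) and 58.2% of Tom- cells (56.7 to 59.7), and in 59.1% and 65.4% of cells without thinning. In cluster 10 they were 6.78% and 7.69% with thinning and 16.7% and 14.3% without. With both libraries summed, Thbd was at 19.0 CPM in cluster 10 and 103.2 CPM in cluster 9. In clusters 11, 12 and 13 it was at 136.1, 106.4 and 55.9 CPM. The 1% of stromal cells with the most Thbd held 14.6% of its UMIs in the Tom+ and 9.65% in the Tom- library. Genes of the dissociation response (16 immediate early and stress genes such as Fos and Hspa1a) stood lower in the same direction, with a median log2 ratio of -0.22, and 3 of 16 past 1.5-fold lower. Their part in the Thbd difference was not tested.

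Over all 8 members that reached 5 CPM in stromal cells, 5 had the higher CPM in the Tom+ library, where 60.5% of all genes did, with a median log2 ratio of 0.18 beside 0.071 for all genes. Scaled to a median ratio of 0 over all genes, Vegfa, Vegfb, Tek, Angptl2 and Hif1a stayed above 0 and Vegfc, Angpt1, Angptl1 and Thbd below. Without the stromal clusters of under 100 cells all ratios rose. They were 0.10 for Vegfa, 0.36 for Vegfb, -0.014 for Vegfc, -0.085 for Angpt1 and 0.36 for Tek. Angptl2 then had 0.49, Hif1a 0.48 and Thbd -1.004. For Vegfc, Tek, Angptl2, Hif1a and Thbd this lay above the counting interval of the reported ratio. In bulk sums of this kind, fewer cells that express a gene and less RNA of it per cell cannot be told apart.

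The stromal cells of both libraries were clustered without the members, the other listed vascular genes and the genes of the dissociation response. The 8 clusters with at least 100 cells are described by their leading genes. Cluster 1 (1847 cells, 19.0% of them Tom+) was led by Vtn and Aspa, cluster 2 (1396 cells, 45.6%) by Efhd1 and Pi16, and cluster 3 (1147 cells, 13.9%) by Cpxm2 and Mfap4. Cluster 4 (933 cells, 84.0%) was led by Chchd10 and Rab3b, cluster 5 (815 cells, 68.6%) by Pi15, Ptgds and Myh11, and cluster 6 (778 cells, 17.1%) by Vdr and Adamts9. Cluster 7 (622 cells, 65.8%) was led by Car3 and Aspn, and cluster 8 (215 cells, 14.0%) by Clu and Gatm. A Pdgfra UMI was found in at least 70.2% of the cells of each. Smaller clusters held 202 Tom+ and 108 Tom- stromal cells, which stay in the sums over all stromal cells. Among them are clusters led by immunoglobulin, T cell, macrophage and mast cell genes. Because genes that differ between the libraries shape the clusters, the mix of libraries in a cluster is partly built in.

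**Figure D2:**
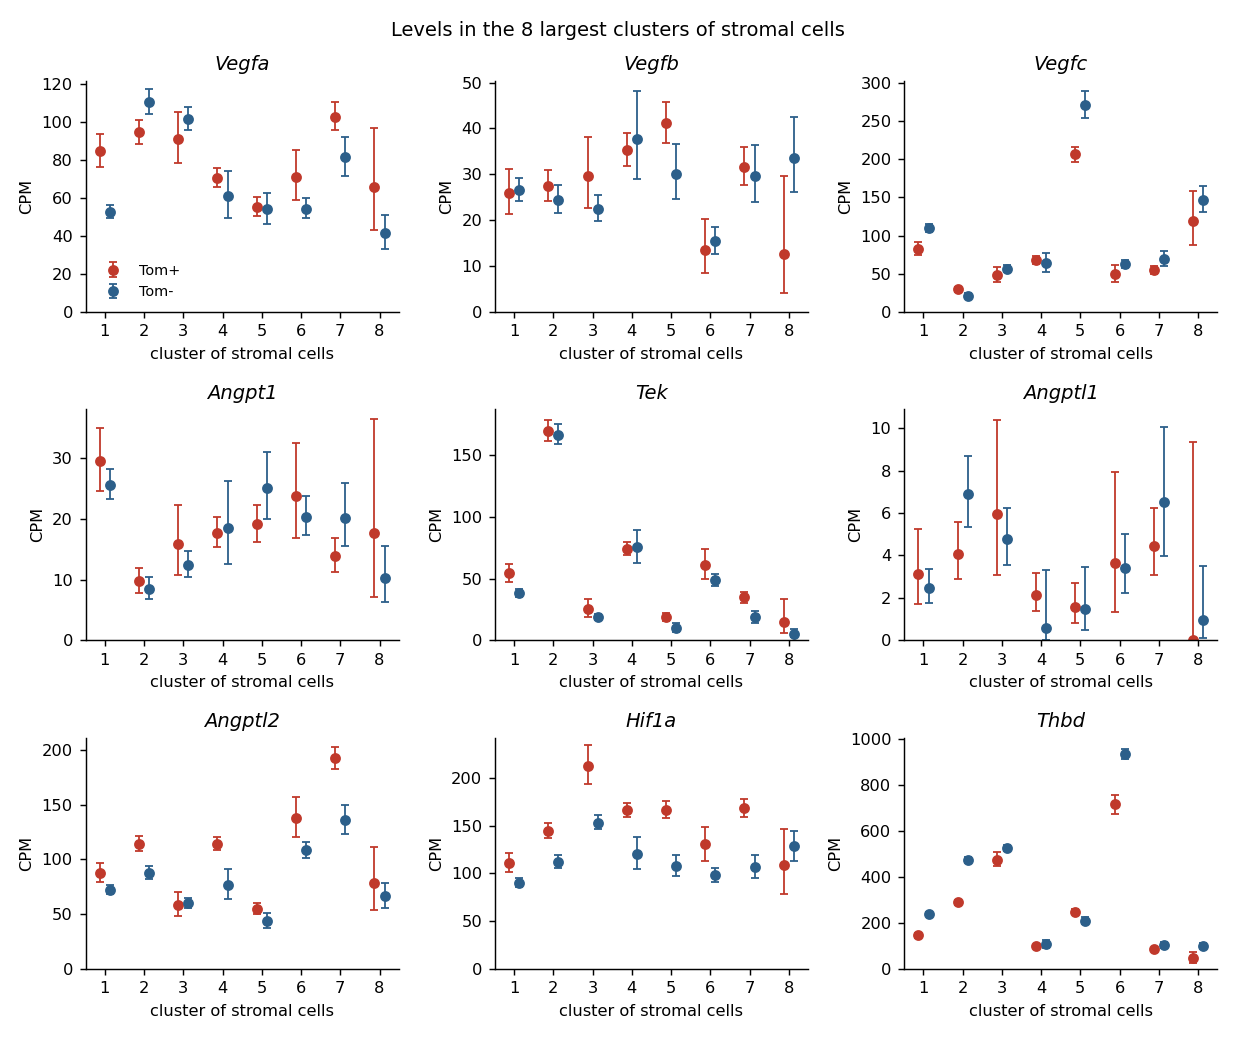
CPM of each gene (vertical axis from 0, scale by panel) in the 8 largest clusters of stromal cells, Tom+ in red and Tom- in blue, with exact Poisson 95% intervals for counting error. Tek peaks in cluster 2 and Vegfc in cluster 5, Thbd peaks in cluster 6, and Hif1a runs from 94.5 to 162.5 CPM with the UMIs of both libraries summed.

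Tek had the widest range over these clusters, 24.2-fold. With the UMIs of both libraries summed, cluster 2 held 167.9 CPM, followed by cluster 4 with 74.2 CPM, cluster 6 with 50.8 and cluster 1 with 41.7. The rest were lower, with 29.9 CPM for cluster 7, 19.9 for cluster 3, 15.99 for cluster 5 and 6.93 for cluster 8. Only clusters 3 and 5 were neighbours in this order with overlapping intervals. Tek was detected in 65.3% of thinned Tom+ and 63.5% of thinned Tom- cells of cluster 2, against 12.01% and 4.48% in cluster 5. Cluster 2 held few endothelial markers: of its cells with Tek, 13 of 516 Tom+ and 13 of 594 Tom- cells had such a UMI.

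Vegfc ran the other way. Cluster 5 led with 225.1 CPM, ahead of cluster 8 with 142.3 and cluster 1 with 104.1, and cluster 2 came last with 25.2 CPM, an 8.92-fold range. Clusters 4, 6, 7 and 3 lay between 67.1 and 55.1 CPM, each with an interval that overlapped the next. Over the 16 profiles of these clusters in each library, Pearson's r of log2(CPM + 1) was -0.78 between Tek and Vegfc and -0.76 between Vegfa and Vegfc, as descriptions of points that share their library and its depth. Over all 28 profiles, which include immune cells, the same pairs had 0.35 and -0.014. Over all stromal cells Vegfc was seen less often in cells with Tek, but inside clusters 2 and 5 the intervals overlapped. Vegfc UMIs were seen in 22.7% (20.2 to 25.4) of thinned Tom+ stromal cells with Tek and 34.2% (32.1 to 36.3) of those without, and in 22.9% (20.5 to 25.5) and 33.5% (31.8 to 35.2) of Tom- cells. Inside cluster 2 the shares with and without Tek were 14.8% (11.5 to 18.8) and 16.1% (11.3 to 21.9) in the Tom+ library, whose intervals overlap. Inside cluster 5 they were 47.0% (34.6 to 59.7) and 61.5% (56.8 to 66.1), whose intervals overlap as well. Of the mural markers, Myh11, a smooth muscle myosin, had its highest level of the 8 clusters in cluster 5, at 148 CPM, while Notch3 was highest in cluster 7, at 69.1 CPM, and at 19.2 CPM in cluster 5. A UMI of any of 7 mural markers was found in 51.7% of Tom+ and 34.7% of Tom- stromal cells with Vegfc, and in 1285 of 3263 and 1221 of 4800 stromal cells in all. Without all cells that had a mural UMI, Vegfc stood at 49.8 (Tom+) and 61.9 CPM (Tom-) in stromal cells, and in cluster 5 at 165.8 and 221.6 CPM.

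Thbd had its peak in cluster 6 with 897.5 CPM, ahead of cluster 3 with 516.8 and cluster 2 with 385.5. Cluster 5 held 237.1 CPM and cluster 1 held 220.1. Clusters 4, 8 and 7 lay between 99.4 and 89.9 CPM and overlapped. The clusters richest in Thbd, 6 and 3, were 17.1% and 13.9% Tom+, and the poor clusters 4 and 7 were 84.0% and 65.8% Tom+. Vegfa was highest in cluster 2 (102.9 CPM), cluster 3 (99.9 CPM) and cluster 7 (96.5 CPM), whose intervals overlapped in this order, and lowest in cluster 8 (45.3 CPM). Angptl2 was highest in cluster 7 at 175.9 CPM, 3.40-fold above cluster 5 at 51.8 CPM. Angpt1 was highest in cluster 1 at 26.4 CPM and lowest in cluster 2, the cluster richest in its receptor, at 9.09 CPM. Vegfb ran from 37.9 CPM in cluster 5 to 15.03 CPM in cluster 6, and Hif1a from 162.5 CPM in cluster 3 to 94.5 CPM in cluster 1, a 1.72-fold range. With the coarser clustering into 5 clusters of at least 100 cells, Hif1a spanned 3.57-fold, from 161.5 to 45.3 CPM, and Vegfa 1.89-fold. In the finer clustering only clusters under 100 cells had Hif1a below 94.5 CPM. Among them were the immunoglobulin-led clusters 9 (61.3 CPM) and 10 (21.5 CPM). The lowest coarser levels of Tek, Vegfc and Thbd (5.23, 14.2 and 66.5 CPM) also lay below every large cluster of the finer clustering. They fell between the levels of cluster 9 (8.52, 21.4 and 103.2 CPM) and cluster 10 (0.965, 4.82 and 19.0 CPM). Which finer clusters were merged was not listed, so whether such cells set the low end of the coarser ranges was not tested. Among the small clusters, the 27 cells led by the mast cell genes Mcpt4 and Tpsb2 had the highest Vegfa level of any cluster, at 229 CPM (164.4 to 310.7) from 41 UMIs.

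Within 7 of 8 clusters, the ratio of Thbd between the libraries was nearer to 0 than over all stromal cells. In cluster 8, with 30 Tom+ cells, it was -1.13 (-1.91 to -0.43), from 45.6 against 99.6 CPM. Thbd was lower in the Tom+ library in 7 of 8 clusters, and in 6 of them the interval lay below 0. It stood at 716.1 (Tom+) and 936.7 CPM (Tom-) in cells of cluster 6, a log2 ratio of -0.39 (-0.48 to -0.30). In cluster 2 it stood at 290.4 and 474.1 CPM, a ratio of -0.71 (-0.78 to -0.64), and in cluster 1 at 145.3 and 240.3 CPM, a ratio of -0.73 (-0.85 to -0.61). Cluster 5 went the other way, with 249 CPM in Tom+ and 208.2 CPM in Tom- cells, a ratio of 0.26 (0.13 to 0.38). With each cluster weighted equally, the ratio was -0.36, under the 1.5-fold limit. If the 8 clusters had their Tom- levels and the mix of UMIs of the Tom+ library, the Thbd level would be 263.8 CPM, beside 416.2 CPM with the Tom- mix. The mix alone thus gives a ratio of -0.66, and the levels within clusters the remaining -0.35 of -1.004. In the other order, at Tom+ levels, the mix gives -0.60 and the levels -0.41. Such splits, here and below, rest on this clustering, which genes that differ between the libraries help to shape. Mix and levels are therefore not independent parts of the difference.

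**Figure D3:**
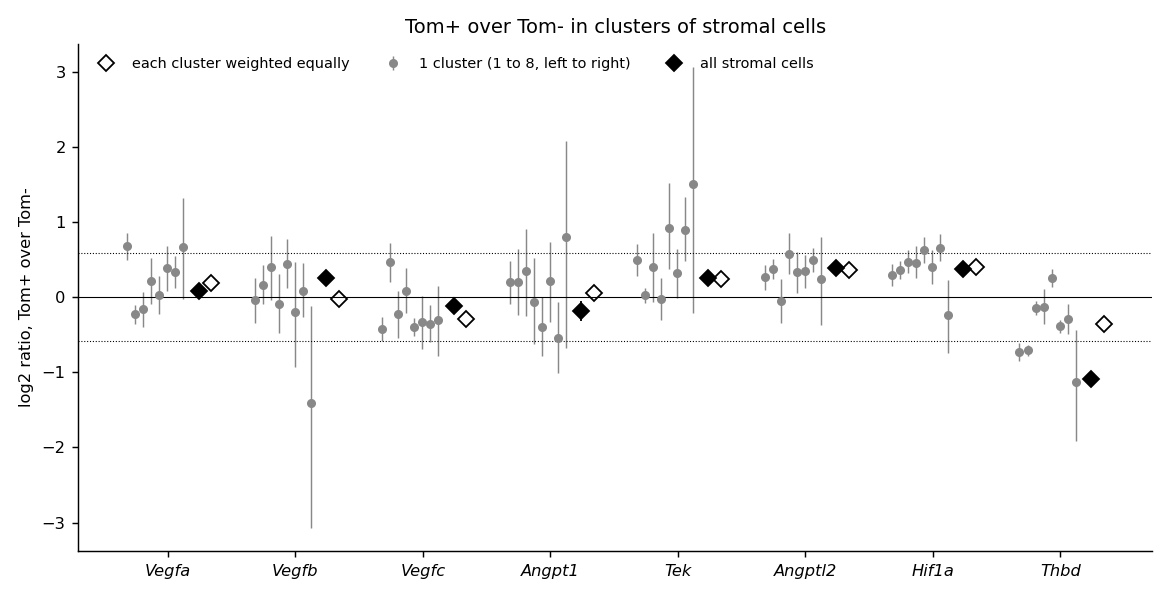
Log2 ratio of Tom+ over Tom- for each gene, in grey for clusters 1 to 8 of the stromal cells with exact 95% counting intervals, as a filled diamond for all stromal cells and as an open diamond with each cluster weighted equally. Dotted lines mark 1.5-fold, and Angptl1 is left out because 1 cluster of the Tom+ library held none of it. Angptl2 and Hif1a lie above 0 in 7 of 8 clusters, and Thbd has -1.09 over all cells but -0.36 with equal weights.

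Angptl2 and Hif1a differed in the other direction and more evenly. Angptl2 was higher in the Tom+ library in 7 of 8 clusters, with the interval above 0 in 6, and ran from 114.3 against 76.5 CPM in cluster 4 (log2 ratio 0.58) to 58.3 against 60.2 CPM in cluster 3 (-0.046). Hif1a was higher in 7 of 8 clusters with the interval above 0 in all 7, and in cluster 8, with 30 Tom+ cells, it was at 109 and 128.3 CPM (-0.24, -0.74 to 0.23). With each cluster weighted equally the ratios were 0.36 for Angptl2 and 0.40 for Hif1a, close to those over all stromal cells. At Tom- levels the mix of clusters alone gives a ratio of -0.0046 for Hif1a and 0.057 for Angptl2, and at Tom+ levels 0.081 and 0.19, beside totals over the 8 clusters of 0.48 and 0.49. Tek was higher in the Tom+ library in 7 of 8 clusters, with the interval above 0 in 3. In cluster 2, where its level was highest, 169.4 CPM in Tom+ and 166.5 CPM in Tom- cells did not differ beyond counting error, with a ratio of 0.025 (-0.075 to 0.13). The mix of clusters alone gives Tek a ratio of 0.21 at Tom- and 0.13 at Tom+ levels, beside a total over the 8 clusters of 0.36. In cluster 7 Tek stood at 34.7 and 18.6 CPM, a ratio of 0.90 (0.48 to 1.34), and in cluster 5 at 18.6 and 9.75 CPM, a ratio of 0.93 (0.38 to 1.52).

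The VEGF ligands differed in both directions. Vegfa was at 84.5 (Tom+) and 52.8 CPM (Tom-) in cells of cluster 1, a log2 ratio of 0.68 (0.50 to 0.85), the only cluster where it passed 1.5-fold with an interval clear of 0. The 1% of these cells with the most Vegfa held 29.9% of its UMIs in the Tom+ library, 44 of them in 1 cell, and 17.7% in the Tom- library. Thinned shares overlapped, at 24.9% (20.3 to 30.0) of Tom+ and 22.5% (20.3 to 24.9) of Tom- cells. In cluster 2 it was at 94.6 and 110.6 CPM (-0.23, -0.36 to -0.097). Vegfc was lower in the Tom+ library in 6 of 8 clusters, with 206.4 against 270.8 CPM in cluster 5 (-0.39, -0.51 to -0.27) and 82.3 against 110 CPM in cluster 1 (-0.42, -0.58 to -0.26). In cluster 2, where it is scarce, it was at 29.5 and 21.3 CPM (0.47, 0.20 to 0.73). Its ratio was -0.28 with equal weights, while the mix of clusters alone gives 0.23 at Tom- and 0.28 at Tom+ levels, beside a total over the 8 clusters of -0.014. Angpt1 was lower in cluster 7, at 13.9 against 20.2 CPM (-0.54, -1.01 to -0.062), and its intervals spanned 0 in the other 7.

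In mesothelial cells no member separated the libraries by 1.5-fold. Thbd was at 273.9 CPM in Tom+ mesothelial cells (260.0 to 288.3) and 279.8 CPM in Tom- cells (274.1 to 285.7), a log2 ratio of -0.031 (-0.11 to 0.049). Hif1a was at 59.7 and 60.8 CPM, a ratio of -0.025 (-0.20 to 0.15), and Angptl2 at 28.9 and 28.6 CPM, a ratio of 0.019 (-0.24 to 0.27). Vegfc had the largest ratio whose interval was clear of 0, at 48.7 CPM in Tom+ cells (42.9 to 55.0) and 60.3 CPM in Tom- cells (57.7 to 63.1) (-0.31, -0.50 to -0.12). Vegfa was at 38.3 and 44.3 CPM (-0.21, -0.43 to 0.0029), Vegfb at 16.2 and 16.3 CPM, and Angpt1 at 6.95 and 5.62 CPM from 37 and 182 UMIs. None of the 7 members that reached 5 CPM passed 1.5-fold, against 3.03% of 10014 genes in either direction, 1.87% higher and 1.16% lower. These 250 Tom+ cells limit what can be seen, and macrophage markers moved with them: Lyz2 was at 275.2 (Tom+) and 10.8 CPM (Tom-) in mesothelial cells. Without the cells that had at least 5 immune UMIs, which were 20 Tom+ and 16 Tom- mesothelial cells, Thbd was at 274.7 and 280.8 CPM. Without the barcodes also listed in the other library, which leaves 150 Tom+ cells, Thbd went the other way, at 311.8 CPM (289.0 to 335.9) against 285.0 CPM (278.5 to 291.7), a ratio of 0.13. The ratio of Vegfc was then -0.034 and that of Vegfa -0.43.

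The largest difference among the members was that of Tek between mesothelial and stromal cells. Tek was at 2.82 CPM in Tom+ mesothelial cells (1.58 to 4.65) and 4.05 CPM in Tom- cells (3.39 to 4.80), which is 23.0-fold and 13.4-fold below stromal cells of the same library. The log2 ratios of -4.52 (-5.36 to -3.80) and -3.74 (-4.00 to -3.49) lay at percentiles 0.835 and 1.11 of all genes. Most of these UMIs sat in few cells: the 1% of Tom- mesothelial cells with the most Tek held 52.7% of its 131 UMIs. With the 6% of cells of highest doublet score left out, Tek was at 0.996 CPM from 5 UMIs in Tom+ and 1.14 CPM from 33 UMIs in Tom- mesothelial cells. Without the barcodes listed in both libraries, 1 Tek UMI was left in the 150 Tom+ mesothelial cells.

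**Figure D4:**
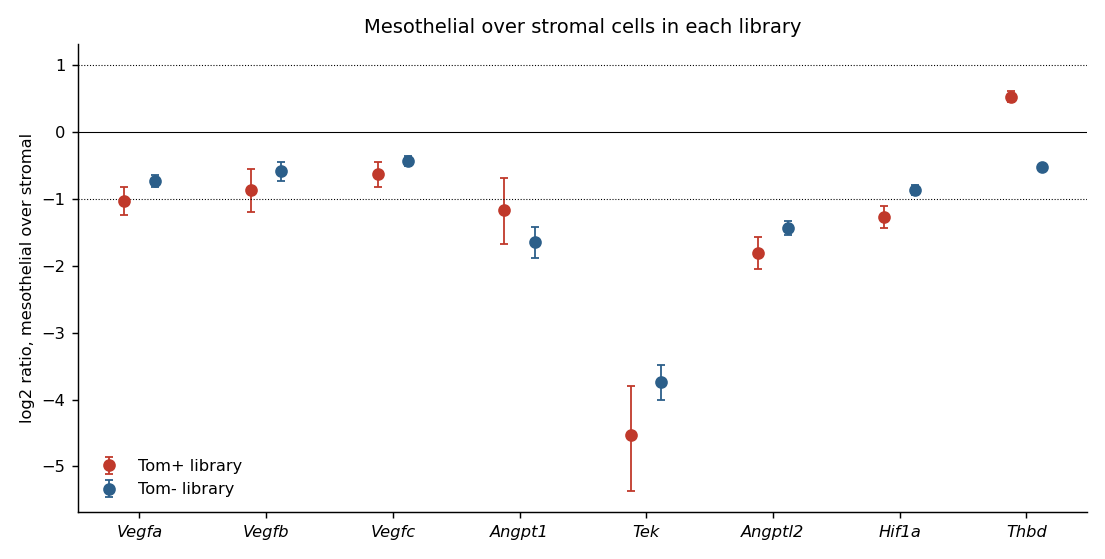
Log2 ratio of mesothelial over stromal cells for each gene, in red for the Tom+ and in blue for the Tom- library, with exact 95% counting intervals and dotted lines at 2-fold. Angptl1 is left out because Tom+ mesothelial cells held none of it. Tek lies lowest in both libraries, at -4.52 and -3.74, and Thbd lies at 0.53 in the Tom+ and -0.53 in the Tom- library.

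In the Tom- library 3 of 8 members, Tek, Angpt1 (-1.65, -1.89 to -1.42) and Angptl2 (-1.43, -1.53 to -1.33), were at least 2-fold lower in mesothelial than in stromal cells, where 9.22% of 10019 genes were lower, 11.9% higher and 21.1% past the limit in either direction. In the Tom+ library 5 of 8 were: Tek, Angptl2 (-1.80, -2.04 to -1.57), Hif1a (-1.27, -1.44 to -1.11), Angpt1 (-1.16, -1.68 to -0.69) and Vegfa (-1.03, -1.24 to -0.82), where 10.1% of 10240 genes were lower, 13.1% higher and 23.2% past the limit in either direction. No member was 2-fold higher in mesothelial cells of either library. Vegfb, Vegfc and the other members that did not pass were lower by less, except Thbd in the Tom+ library. Angptl1 had 0 UMIs in Tom+ mesothelial cells and 10 UMIs in Tom- mesothelial cells. With 3 UMIs as the floor (0.564 CPM), its Tom+ mesothelial level was 5.10-fold lower than in Tom+ stromal cells. The exact interval of that 0 reaches 0.693 CPM, above the floor, so this fold is not a lower limit. Thbd was 1.44-fold higher in mesothelial than in stromal cells of the Tom+ library and 1.44-fold lower in the Tom- library, or 0.49 and -0.53 on the log2 scale without the barcodes listed in both libraries. The direction of Thbd between these classes therefore differed by library. Its mesothelial levels were 273.9 (Tom+) and 279.8 CPM (Tom-), so the opposite signs restate the stromal difference. With each stromal cluster weighted equally, stromal Thbd was at 263.1 (Tom+) and 336.6 CPM (Tom-), nearer to the mesothelial levels. Thbd was detected in 68.8% of thinned Tom+ mesothelial cells (62.6 to 74.5) and 71.5% of Tom- cells (69.3 to 73.6).

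Of 5 VEGF receptors and co-receptors, only the neuropilins Nrp1 and Nrp2 reached 5 CPM in stromal cells. Kdr, the main receptor of Vegfa, was at 1.06 (Tom+) and 1.78 CPM (Tom-) in stromal cells, but at 119.5 CPM and 81.5 CPM in mesothelial cells. In thinned cells a Kdr UMI was found in 39.7% of Tom+ and 33.0% of Tom- mesothelial cells and in 0.761% and 0.732% of stromal cells. Cdh5, a junction protein of endothelium, had 0 UMIs in Tom+ and 2 UMIs in Tom- mesothelial cells. Of the 7 endothelial markers, 2 averaged 5 CPM or more over both classes in each library, Kdr among them. Both of these were at least 2-fold higher in mesothelial than in stromal cells. The 7 summed to 133.9 (Tom+) and 90.9 CPM (Tom-) in mesothelial cells. The co-receptor Nrp1 was at 186.6 and 172.6 CPM in stromal cells and at 21.2 and 14.6 CPM in mesothelial cells. Nrp2 was at 47.3 (Tom+) and 28.1 CPM (Tom-) in stromal cells, a log2 ratio of 0.75 (0.66 to 0.84). A further ligand, Vegfd, stood higher than any VEGF member in stromal cells, at 449.9 and 437.8 CPM.

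Of 75 other genes on the vascular, hypoxia and coagulation lists, 48 reached 5 CPM in stromal cells. Of these 21 had the higher CPM in the Tom+ library, 3 were past 1.5-fold higher and 4 past 1.5-fold lower, with a median log2 ratio of -0.046. Of all genes 60.5% were higher, 3.86% past 1.5-fold higher and 3.25% past 1.5-fold lower, with a median of 0.071. Past the limit upward were Nrp2, the lipoprotein receptor Vldlr (179.7 against 110.6 CPM) and the thrombospondin Thbs2 (97.5 against 64.6 CPM). Past it downward were the thrombospondin Thbs1 (572.6 against 1011 CPM), hexokinase Hk2 (256.5 against 461.3 CPM), the glucose transporter Slc2a1 (7.75 against 16.7 CPM) and Hgf (6.75 against 13.1 CPM), the last below 10 CPM on average and named after its values were seen. All 3 HIF subunits that reached 5 CPM were higher in the Tom+ library, with Epas1 at 98.8 against 77.0 CPM and Arnt at 77.6 against 65.0 CPM. The hypoxia-induced genes were not: 7 of 20 were higher, with a median of -0.088. Adm, a vasodilator peptide, was at 616.2 against 444.7 CPM, and Ldha at 150 against 219.1 CPM. In the protein C and coagulation list 1 of 7 was higher, with a median of -0.34, and Thbd was its only member past 1.5-fold. Its partner Procr, the protein C receptor, was at 81.6 against 116.7 CPM, and tissue factor F3 at 230.4 against 312.6 CPM. Angptl4, an inhibitor of lipoprotein lipase, was at 279.3 against 195.3 CPM (0.52, 0.48 to 0.55), in the direction of Angptl2.

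In mesothelial cells 52 of the 75 reached 5 CPM, with 16 higher in the Tom+ library, 1 past 1.5-fold higher and 3 lower, and a median of -0.077, beside 56.5% higher and a median of 0.032 for all genes. Nrp2 was the 1 that passed upward, at 22.0 against 14.4 CPM, and Cxcl12 (26.1 against 56.3 CPM), Slc2a1 (10.3 against 18.1 CPM) and Angptl7, below 10 CPM on average and named after its values were seen, passed downward. Between the classes, mesothelial cells had 11 of 54 genes at least 2-fold higher and 17 lower in the Tom- library, and 10 of 52 higher and 16 lower in the Tom+ library. Epas1, the other oxygen-regulated subunit, was at 11.5 (Tom+) and 11.4 CPM (Tom-) in mesothelial cells against 98.8 and 77.0 CPM in stromal cells. Egln3, a prolyl hydroxylase that marks the HIF subunits for removal, went the other way, at 45.1 and 49.7 CPM against 1.53 and 4.84 CPM. Stromal cluster 8 was an exception, with Egln3 at 71.4 CPM (61.2 to 82.7) from 175 UMIs of both libraries. The next of the large stromal clusters was cluster 3, at 3.88 CPM.

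The genes most like each member were ranked by Pearson's r of log2(CPM + 1) over the 28 profiles of a cluster in a library, among 5825 genes that averaged 20 CPM or more. These profiles share their library and its depth, and those of immune cells are among them. The genes nearest to Tek were Qpct (0.91), Pla1a (0.90) and Pcolce2 (0.90), and those nearest to Vegfc were Copz2 (0.90), 3632451O06Rik (0.90) and Ripor1 (0.87). Angpt1 was most like Gpr153 (0.93), Hoxc9 (0.92) and Hmcn2 (0.90), and Angptl2 most like Kctd17 (0.97), Phldb1 (0.96) and Mrc2 (0.96). Hif1a was nearest to Pum2 (0.92), Prrc2c (0.91) and Eif4g2 (0.91), and Thbd to Atg101 (0.87), Vcan (0.84) and Pmvk (0.84). Vegfa (Dusp10, 0.74, Prkca, 0.71, and Rsbn1, 0.69), Vegfb (Ube2e3, 0.83, Txndc17, 0.83, and Tbca, 0.82) and Angptl1 (Aspn, 0.75, Ganab, 0.73, and Naf1, 0.70) had weaker neighbours. Over only the 16 profiles of the 8 large clusters, a choice made after the data were seen, the nearest genes were others: Larp6 (0.97) for Tek, Myh11 (0.89) for Vegfc, Csf1 (0.90) for Vegfa, Smad3 (0.96) for Angptl2 and Mat2a (0.94) for Thbd.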

How the data were processed

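RNA of sorted gWAT cells was measured in 1 10x 3' library per condition, Tom+ and Tom-, with the groups taken from the labels. According to the submitters' processing notes the authors used Cell Ranger 3.0.2 and mm10, and the deposited values are filtered matrices of UMI counts per gene and barcode, not normalised. The strand setting of the counting is not given in the sources used here. No column of another series was used (0).

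The members and all gene lists were chosen with earlier results of these data known. Cells with more than 1000 and under 7000 genes and under 8% mitochondrial UMIs were kept, or 3524 of 5566 Tom+ and 6717 of 11838 Tom- barcodes. UMIs were summed by library and class and divided by the total UMIs of those cells. Ratios were listed for genes that averaged 5 CPM or more, and a gene was counted as past the limit from 1.5-fold between libraries and 2-fold between classes. With 1 library per condition no test was run. Exact Poisson, Clopper-Pearson and conditional binomial intervals cover counting error only, and their computation was tested on simulated data with 200 changed genes. The depth of 51104409 and 57883866 stromal UMIs leaves intervals of a few percent for most members, and that of 5322983 Tom+ mesothelial UMIs wider ones. For shares of cells, each cell was thinned to 7204 UMIs, leaving out 240 Tom+ and 567 Tom- stromal cells and 3 and 84 mesothelial cells. Stromal cells were clustered with 2000 variable genes, 30 principal components, 20 neighbours and Leiden resolution 0.5. The members, the other listed vascular genes and the genes of the dissociation response were barred from the variable genes. Tools were Python 3.11.15, scanpy 1.11.5, scipy 1.17.1, scikit-learn 1.9.0 and igraph 0.11.9.

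Doublets were kept in the reported values. Scrublet called 2 Tom+ and 122 Tom- cells (0.0568% and 1.82%), few enough in the Tom+ library that leaving out the 6% of cells with the highest scores was tried as well. That alternative, and those leaving out barcodes listed in both libraries or cells with endothelial, mural or immune markers, were chosen after seeing the data. So were those leaving out stromal clusters of under 100 cells or leaving immunoglobulin UMIs out of the total. All 9 members were named, other listed genes from a mean of 10 CPM with the exceptions stated, and the 3 genes most like each member by Pearson's r over profiles of at least 50000 UMIs. Promoter sequences were matched by symbol for 7 of the 9 members. Thbd and Angpt1 had none in the table used. The 11 Tom+ and 30 Tom- cells between the class limits entered no comparison.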

Additional observations from a re-analysis of the deposited data

Results flagged for a closer look

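Thbd differed in direction between the libraries. Its log2 ratio of mesothelial over stromal cells was -0.53 in the Tom- and 0.53 in the Tom+ library, and the difference was not tested, since each library was measured once. Mesothelial levels were 279.8 (Tom-) and 273.9 CPM (Tom+), so this is the stromal difference described above and no separate result. That stromal difference was smaller with each cluster weighted equally, at 336.6 (Tom-) and 263.1 CPM (Tom+).

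In 4 members the ratio of Tom+ over Tom- went opposite ways in different stromal clusters, with counting intervals clear of 0 on both sides. These differences between clusters were not tested either, and for each gene the extreme clusters of 8 are given. For Vegfa the log2 ratio was 0.68 in cluster 1, where 1% of the Tom+ cells held 29.9% of its Tom+ UMIs, and -0.23 in cluster 2. Vegfb had 0.45 in cluster 5 and -1.40 in cluster 8, the latter from 5 Tom+ and 69 Tom- UMIs. Vegfc had 0.47 in cluster 2 and -0.42 in cluster 1. Thbd had 0.26 in cluster 5 and -1.13 in cluster 8, the latter from 18 and 205 UMIs in 30 Tom+ and 185 Tom- cells.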

How the results depend on the processing

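No paired analysis was possible because each condition has 1 library and no replicate number, and for the same reason no replicate could be left out. Of 359 member ratios under the alternatives, 343 kept their direction, 283 stayed within the counting interval of the reported value, 76 moved beyond it and none that was past its limit turned. Without the barcodes listed in both libraries, the Thbd ratio in mesothelial cells changed sign to 0.13. With each stromal cluster weighted equally, 228 genes in place of 695 were past 1.5-fold between the libraries and 0 members in place of 1, since Thbd had -0.36. Over all alternatives its stromal ratio lay between -1.16 and -0.36. The sign of smaller stromal ratios changed for Angpt1 (0.064) and Vegfb (-0.018) with equal weights and for Vegfa (-0.012) without cells that had a mural UMI. Without the barcodes listed in both libraries, 614 genes in place of 303 were past the limit in mesothelial cells, with 150 Tom+ cells left, and the cause was not tested. Listing all genes with at least 1 UMI adds genes of few counts: 7389 genes were past 1.5-fold in stromal and 6657 in mesothelial cells, where 1 member, Angptl1 with 0 against 10 UMIs, then passed, and 9063 and 10045 genes were past 2-fold between the classes in the Tom- and Tom+ libraries, in place of 2119 and 2379. Without thinning, 8 members in place of 5 had the higher share of cells in the Tom+ library among stromal cells and 7 in place of 3 among mesothelial cells, as Tom+ cells were deeper. Size factors moved the median of all genes by 0.071 in stromal and 0.032 in mesothelial cells and by 0.14 and 0.11 between the classes. At a Leiden resolution of 0.25, 8 of 9 members spanned at least 2-fold over the clusters, as many as at 0.5, but the member under 2-fold was Vegfa (1.89-fold) in place of Hif1a, which spanned 3.57-fold. For all members but Vegfa, the lowest level there lay below that of every large cluster at 0.5, with 45.3 CPM for Hif1a. Cells in clusters under 100 cells were left out of the range at 0.5 but can enter it at 0.25. The equal counts therefore need not rest on the same cells, and which cells set the low levels was not tested. Depth limits Angptl1 everywhere and Tek and Angpt1 in Tom+ mesothelial cells, with 15 and 37 UMIs.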
